A study of Mus musculus with 37 samples.

Results

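The 10 genes described here are those of serine synthesis, mitochondrial one-carbon metabolism and the amino acid stress response: Phgdh, Psat1, Psph, Shmt2, Mthfd2, Asns, Trib3, Ddit3, Chac1 and Slc7a11. They were taken by symbol from the 51123 gene IDs of the TPM table. The symbol Ddit3 matched 2 gene models that overlap, so the genes gave 11 rows, all of which passed the filter on low values in both sets. RNA was sequenced from cultured mouse bone marrow (BM) and osteosarcoma cells in 37 libraries, fitted as 2 sets that each have their own controls. In DKO mice Osx1-Cre, which acts in mesenchymal progenitors committed to bone, deletes both Trp53 and Wwox, and in SKO mice it deletes Trp53 alone; both carry the Rosa26-LSL-tdTomato reporter. Set 1 holds DKO yBM (BM of young mice without tumors, 3 libraries at 1.5 months and 3 at 4 months), DKO BMT (BM at the time of tumor detection, n = 3), DKO tumor (n = 3) and control BM (n = 4). Set 2 holds 3 libraries each of DKO yBM, SKO yBM, DKO BMT, SKO BMT, DKO tumor, SKO tumor and control BM, and the ages of its mice were not given in the sources used here. The control mice are WT in the labels and Cre negative in the series design, and all cells were grown in MEM-alpha with serum. By the methods, which count the mice of set 1, RNA was taken after 3 passages, when most cultured cells were positive for tdTomato.

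Cells make serine from a glycolytic intermediate, 3-phosphoglycerate, in a chain of reactions. Phgdh oxidises it, Psat1 transfers an amino group from glutamate, and Psph removes the phosphate to give serine. In mitochondria Shmt2 turns serine into glycine and passes a one-carbon unit to folate, and Mthfd2 carries that unit on toward formate for purine and thymidylate synthesis. Asns makes asparagine from aspartate and glutamine. All of these genes are known targets of Atf4, the transcription factor that is translated when eIF2 alpha is phosphorylated under amino acid shortage or endoplasmic reticulum stress (the integrated stress response). Trib3 (a pseudokinase that feeds back on Atf4), Ddit3 (the transcription factor CHOP), Chac1 (which degrades glutathione) and Slc7a11 (the cystine and glutamate exchanger) are Atf4 targets of the stress arm of that response.

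Promoter windows of 250 bases before to 50 bases after the gene start (RefSeq, GRCm38.p6, a build other than that of the TPM table) were at hand for all 10 genes. They are shown for Psat1, the gene called in the most comparisons below, and for the 4 genes whose window holds the C/EBP-ATF composite motif TGATGNAA, searched on both strands and printed in capitals.
Psat1, chr19:15925010-15925309, minus strand: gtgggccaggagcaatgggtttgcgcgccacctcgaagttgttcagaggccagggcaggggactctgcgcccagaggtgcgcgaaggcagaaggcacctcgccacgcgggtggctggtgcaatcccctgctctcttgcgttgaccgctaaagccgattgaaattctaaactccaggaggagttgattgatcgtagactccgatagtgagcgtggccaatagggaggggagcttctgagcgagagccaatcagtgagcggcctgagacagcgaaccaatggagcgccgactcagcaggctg
Asns, chr6:7693160-7693459, minus strand: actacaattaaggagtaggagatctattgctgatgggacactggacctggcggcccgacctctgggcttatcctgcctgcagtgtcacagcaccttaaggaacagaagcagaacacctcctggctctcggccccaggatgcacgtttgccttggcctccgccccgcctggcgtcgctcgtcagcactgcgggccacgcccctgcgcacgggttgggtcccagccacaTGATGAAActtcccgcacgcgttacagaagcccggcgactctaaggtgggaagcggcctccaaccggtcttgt
Slc7a11, chr3:50443564-50443863, minus strand: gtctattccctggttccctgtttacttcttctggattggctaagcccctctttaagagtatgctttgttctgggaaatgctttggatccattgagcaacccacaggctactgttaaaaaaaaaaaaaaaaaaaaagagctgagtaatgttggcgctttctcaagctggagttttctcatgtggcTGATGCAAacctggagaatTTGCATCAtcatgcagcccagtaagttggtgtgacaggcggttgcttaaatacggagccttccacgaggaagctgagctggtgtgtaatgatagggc
Chac1, chr2:119350992-119351291, plus strand: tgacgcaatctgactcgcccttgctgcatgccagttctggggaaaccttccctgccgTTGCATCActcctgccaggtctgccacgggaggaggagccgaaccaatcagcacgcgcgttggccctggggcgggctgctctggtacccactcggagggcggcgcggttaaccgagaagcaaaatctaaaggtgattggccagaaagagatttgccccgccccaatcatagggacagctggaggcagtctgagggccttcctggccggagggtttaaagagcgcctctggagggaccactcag
Trib3, chr2:152344011-152344310, minus strand: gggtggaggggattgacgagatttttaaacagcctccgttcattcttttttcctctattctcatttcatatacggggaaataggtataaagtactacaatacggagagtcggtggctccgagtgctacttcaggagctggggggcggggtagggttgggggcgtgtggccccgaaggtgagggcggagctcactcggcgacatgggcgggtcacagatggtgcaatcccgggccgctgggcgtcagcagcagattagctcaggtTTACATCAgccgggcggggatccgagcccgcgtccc
In Asns the match began 23 bases before the start, Slc7a11 had 2 matches, at 66 and 47 bases before it, Chac1 had 1 at 193 bases before it and Trib3 had 1 at 14 bases after it. The motif was thus in a window of 4 of 10 genes, which have 11 windows, against 3.97% of all 32851 windows. The genes are known Atf4 targets, so this share is not independent of how they were chosen. The motif was in neither of the 2 Psat1 windows, nor in those of Phgdh, Psph, Shmt2, Mthfd2 and Ddit3. The E-box CACGTG, which Myc binds, was in none of the 11 windows of these genes, against 7.15% of all windows. For so few windows this is near the share of all windows. Sequence outside the windows was not searched, and binding by Myc was not tested.

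The deleted genes and the cell makeup limit what the labels carry. Trp53 was below 50% of the control mean in all but 2 of the 30 libraries labelled DKO or SKO, those of DKO BMT 2 and 3 of set 1. Wwox was at or above 50% of the control mean in 10 of the 21 libraries labelled DKO, 7 in set 1 and all 3 of DKO tumor in set 2. Of the libraries labelled SKO, SKO BMT 2 and 3 held Wwox at 2.84% and 2.39% of the control mean, whereas the others were at 77.6% to 329%. The results of the group labelled SKO BMT are therefore also given without these 2, which leaves SKO BMT 1 alone, its spread taken to be that of the other groups. In each library 8 to 14 of 14 osteoblast markers and 11 to 14 of 14 mesenchymal stromal markers were at 1 TPM or more. The TPM are per gene, so a transcript that lacks the deleted exons may still be counted. The mean log2(TPM + 1) of 22 macrophage and other leukocyte markers was at most 0.93 in 16 of the 18 DKO and SKO libraries of set 2 (5.06 in SKO BMT 2 and 4.25 in DKO BMT 2), against 8.19 to 8.48 in control BM of set 2. In set 1 it was 3.98 to 7.68 in DKO yBM, 6.76 to 7.16 in DKO BMT and 0.45 to 5.84 in DKO tumor, against 5.70 to 8.03 in control BM. Genotype and leukocyte content therefore cannot be told apart in set 2, and in such cultures fewer cells of a type and less RNA per cell cannot be told apart either.

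Serine synthesis. Among the 3 enzymes of the chain, Psat1 was called higher in all 9 comparisons with control BM, Phgdh in 7 and Psph in 5 (called is a Benjamini-Hochberg adjusted p under 0.05 by limma over all genes tested). Psat1 was at 63.5 to 121 TPM with a median of 97.9 TPM in the 6 DKO yBM libraries, 276, 92.2 and 114 TPM in DKO BMT and 158, 159 and 205 TPM in DKO tumor. Psat1 was at 28.2, 79.9, 27.9 and 20.2 TPM in control BM of set 1. Control BM 2 lay within the range of the knockout libraries and the other 3 controls were below all of them. On the log2(TPM + 1) scale the difference was 1.45 ± 0.36 in DKO yBM, 2.05 ± 0.42 in DKO BMT and 2.33 ± 0.42 in DKO tumor (estimate ± SE), with limma adjusted p of 0.0292, 0.0298 and 0.0192. Psat1 in set 2 was at 321, 211 and 326 TPM in DKO yBM, 253, 99.5 and 402 TPM in DKO BMT and 308, 314 and 164 TPM in DKO tumor. The SKO cells of that set had 195, 101 and 242 TPM in yBM, 189, 319.5 and 326 TPM in BMT and 197, 71.0 and 101 TPM in tumor. Psat1 was at 17.0, 32.3 and 31.9 TPM in control BM of set 2. All 18 knockout libraries of set 2 were above all 3 controls, and log2 differences ran from 2.07 ± 0.49 (adjusted p = 0.00863) in SKO tumor to 3.38 ± 0.49 (adjusted p = 7.15e-05) in DKO yBM. Over both sets 29 of 30 knockout libraries were above the highest control of their own set.

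Phgdh, which commits carbon to serine, was called in 7 of 9 comparisons. It was at 182 to 278 TPM with a median of 209 TPM in DKO yBM, 494, 136 and 259 TPM in DKO BMT and 495, 367 and 502 TPM in DKO tumor. Phgdh was at 72.6, 235, 54.2 and 58.1 TPM in control BM of set 1. Of the set 1 groups only tumor lay wholly above the 4 controls, and the log2 difference was 2.38 ± 0.46 (adjusted p = 0.0243) there, 1.33 ± 0.39 (adjusted p = 0.0481) in yBM and 1.59 ± 0.46 (adjusted p = 0.0774) in BMT, the last of which was not called by limma. Phgdh in set 2 was at 422, 390.1 and 502 TPM in DKO yBM, 492, 137 and 922 TPM in DKO BMT and 538, 437 and 366 TPM in DKO tumor. SKO yBM had 212, 212 and 301 TPM, SKO BMT 373, 467 and 501 TPM and SKO tumor 243, 70.4 and 249 TPM. Phgdh was at 35.7, 98.1 and 63.0 TPM in control BM of set 2. DKO BMT 3 held the highest level of the series and SKO tumor 2 was the single knockout library of set 2 inside the control range, and the SKO tumor group was not called (1.41 ± 0.56, adjusted p = 0.12). Means were 6.67 times the control mean in DKO yBM and 3.69 times in SKO yBM.

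Psph, the last enzyme of the chain, was the lowest of the 3 in TPM and was called in 5 of 9 comparisons. It was at 21.5 to 32.8 TPM with a median of 25.4 TPM in DKO yBM, 95.9, 23.4 and 32.9 TPM in DKO BMT and 29.3, 42.9 and 41.3 TPM in DKO tumor. Psph was at 9.49, 27.3, 9.23 and 9.45 TPM in control BM of set 1. Of these the BMT group was called (1.69 ± 0.42, adjusted p = 0.0492), with BMT 1 far above the other 2 libraries. Psph in set 2 was at 66.4, 43.7 and 53.8 TPM in DKO yBM, 42.5, 17.8 and 191 TPM in DKO BMT and 77.5, 62.7 and 41.6 TPM in DKO tumor. It was at 56.2, 38.0 and 44.6 TPM in SKO yBM, 35.8, 112 and 104 TPM in SKO BMT and 44.7, 24.4 and 25.9 TPM in SKO tumor. Psph was at 5.47, 17.9 and 16.9 TPM in control BM of set 2. The calls of set 2 were in DKO yBM, DKO BMT, DKO tumor and SKO BMT, with log2 differences of 2.06 ± 0.64 to 2.55 ± 0.64, and the start of Psph overlaps a transcript of Cct6a, so some reads may be shared.

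Mitochondrial one-carbon enzymes. Shmt2, which splits serine into glycine and a one-carbon unit, was called in 6 of 9 comparisons and Mthfd2 in 5. Shmt2 was at 42.8 to 75.3 TPM with a median of 59.0 TPM in DKO yBM, 169.9, 88.0 and 106 TPM in DKO BMT and 129, 83.8 and 99.0 TPM in DKO tumor. Shmt2 was at 29.3, 56.4, 24.0 and 19.6 TPM in control BM of set 1. All 6 BMT and tumor libraries were above all 4 controls, with log2 differences of 1.94 ± 0.33 (adjusted p = 0.0108) in BMT and 1.75 ± 0.33 (adjusted p = 0.0214) in tumor. Shmt2 in set 2 was at 155, 135 and 225 TPM in DKO yBM, 181, 82.8 and 516 TPM in DKO BMT and 374, 149.7 and 96.2 TPM in DKO tumor. It was at 103, 96.0 and 115 TPM in SKO yBM, 141, 288 and 211 TPM in SKO BMT and 125, 20.5 and 70.7 TPM in SKO tumor. Shmt2 was at 15.7, 39.9 and 38.4 TPM in control BM of set 2. The 3 DKO groups and SKO BMT were called, whereas SKO yBM (1.81 ± 0.66, adjusted p = 0.075) and SKO tumor (0.95 ± 0.66, adjusted p = 0.417) were not.

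Mthfd2, highly expressed in embryonic and proliferating cells, differed least between the knockout libraries of set 1, the highest being 3.09 times the lowest. It was at 48.1 to 65.1 TPM with a median of 57.6 TPM in DKO yBM, 149, 65.4 and 72.6 TPM in DKO BMT and 51.4, 81.3 and 109 TPM in DKO tumor. Mthfd2 was at 26.8, 67.5, 24.6 and 14.3 TPM in control BM of set 1. Control BM 2 was above 8 of the 12 knockout libraries and no group of set 1 was called, the lowest adjusted p being that of BMT (1.62 ± 0.41, adjusted p = 0.0545). Mthfd2 in set 2 was at 106, 91.6 and 81.3 TPM in DKO yBM, 84.8, 50.4 and 144 TPM in DKO BMT and 156, 142 and 78.9 TPM in DKO tumor. It was at 82.6, 93.3 and 102 TPM in SKO yBM, 54.7, 193 and 124 TPM in SKO BMT and 98.8, 39.2 and 48.7 TPM in SKO tumor. Mthfd2 was at 10.99, 29.0 and 24.6 TPM in control BM of set 2, so that all 18 knockout libraries were above the 3 controls. It was called in 5 of the 6 knockout groups, up to 2.53 ± 0.48 (adjusted p = 0.0011) in DKO tumor, with SKO tumor just short (1.48 ± 0.48, adjusted p = 0.0552).

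Asparagine synthesis. Asns was called in 7 of 9 comparisons, in all but DKO yBM of set 1 and SKO tumor. It was at 73.8 to 106 TPM with a median of 81.2 TPM in DKO yBM, 259, 97.0 and 125 TPM in DKO BMT and 155, 134 and 135 TPM in DKO tumor. Asns was at 46.1, 113, 30.6 and 24.6 TPM in control BM of set 1. The tumor libraries lay close together and above all 4 controls (1.64 ± 0.42, adjusted p = 0.0467), while the yBM libraries were all below control BM 2 and above the other 3 (0.90 ± 0.35, adjusted p = 0.119). Asns in set 2 was at 193, 151 and 196 TPM in DKO yBM, 162, 77.9 and 403 TPM in DKO BMT and 293, 192 and 114 TPM in DKO tumor. It was at 166, 160.1 and 130.5 TPM in SKO yBM, 115, 389 and 306 TPM in SKO BMT and 163, 57.3 and 81.6 TPM in SKO tumor. Asns was at 22.2, 55.0 and 54.5 TPM in control BM of set 2. All 18 knockout libraries were above the controls, the lowest being SKO tumor 2, and the log2 difference was largest in SKO BMT (2.53 ± 0.57, adjusted p = 0.00576; 1.48, adjusted p = 0.268, without SKO BMT 2 and 3).

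**Figure D1:**
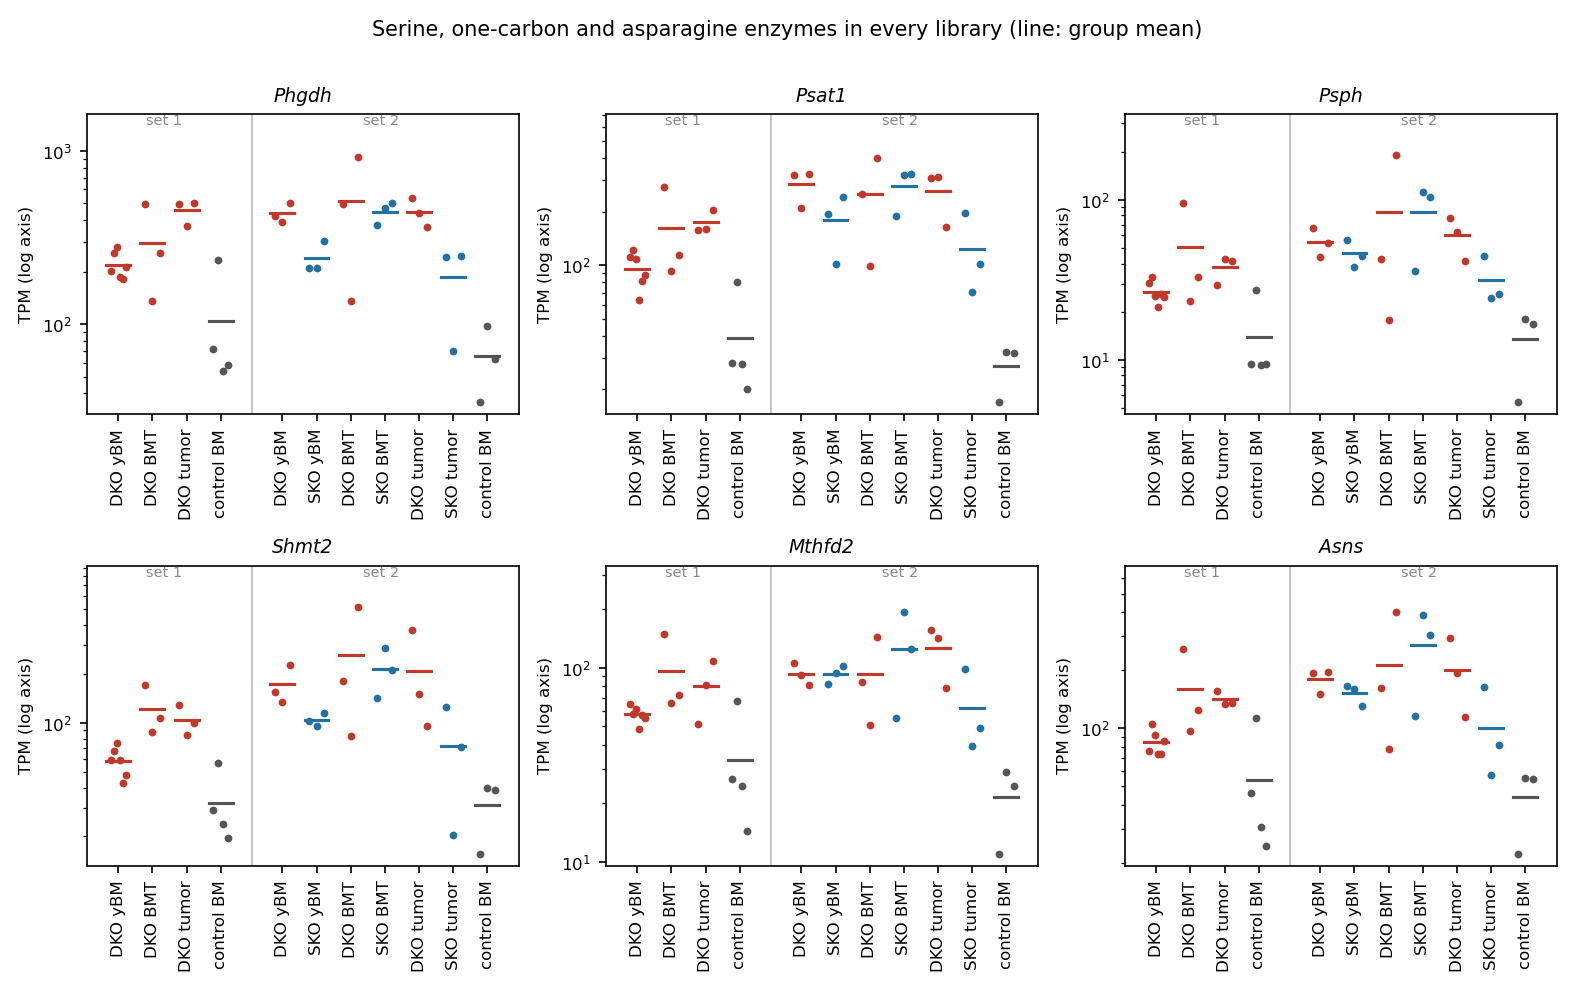
TPM (log axis) of the 6 enzymes in each of the 37 libraries, with DKO in red, SKO in blue, control BM in grey and a line at each group mean. In set 2 the knockout libraries sit above the controls but for 1 library each of Phgdh, Psph and Shmt2, whereas in set 1 control BM 2 sits among the knockout libraries.

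Against control BM, 2 of the 11 rows were called in DKO yBM of set 1 (Psat1 and Phgdh), where 1.67% of all tested genes were called higher. The count was 4 in DKO BMT (Asns, Psat1, Psph and Shmt2; 0.958% of all genes) and 4 in DKO tumor (Asns, Psat1, Phgdh and Shmt2; 1.19%). In set 2 all 6 enzymes were called in DKO yBM (6 rows, against 9.34% of all genes) and in DKO BMT (6 rows, against 4.22%). The same 6 and Trib3 were called in DKO tumor (7 rows, against 7.71%) and in SKO BMT (7 rows, against 5%). SKO yBM had 4 (Asns, Psat1, Phgdh and Mthfd2; 5.78%) and SKO tumor had Psat1 alone (1 row, against 2.01%). No row was called lower in any of the 9 comparisons. Of all genes 6.14% were called lower in DKO yBM, 1.4% in DKO BMT and 2.21% in DKO tumor of set 1. In set 2 the lower share was 10.2% in DKO yBM, 7.79% in DKO BMT, 9.48% in DKO tumor, 7.77% in SKO yBM, 8.36% in SKO BMT and 9.57% in SKO tumor. The median log2 difference of the rows was 0.90 in DKO yBM, 1.62 in DKO BMT and 1.52 in DKO tumor of set 1, while that of all tested genes was -0.22, -0.058 and -0.089. In set 2 it was 2.15 in DKO yBM, 2.06 in DKO BMT and 2.39 in DKO tumor, with all genes at 0.068, 0.091 and 0.11. For SKO it was 1.87 in yBM, 2.55 in BMT and 1.28 in tumor, with all genes at 0.24, 0.074 and -0.11. The libraries of a knockout group were all above all controls of set 1 for 0 of 11 rows in DKO yBM (3.19% of all genes), 4 in DKO BMT (7.14%) and 5 in DKO tumor (4.97%). In set 2 this held for 9 rows in DKO yBM (24.9%), 5 in DKO BMT (15.9%) and 10 in DKO tumor (21.8%). For SKO it held for 10 in yBM (30.9%), 8 in BMT (17.8%) and 7 in tumor (7.46%).

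Single libraries moved these counts. Without SKO BMT 2 and 3, whose Wwox was near 0, only Psat1 was called in SKO BMT (1 row; 2.82, adjusted p = 0.0245) and the median of the rows there was 1.41, so that the SKO BMT calls of Asns, Phgdh, Psph, Shmt2, Mthfd2 and Trib3 were lost. In set 1 control BM 2 was the highest control for 8 of the 11 rows, and without it the counts were 6 in DKO yBM, 8 in DKO BMT and 8 in DKO tumor. In DKO yBM the count was 0 without any 1 of yBM 1, 3, 5 or 6 or control BM 1, 3 or 4, and 1 without yBM 2 or 4. In DKO BMT it was 1 without BMT 1, control BM 1 or control BM 4 and 2 without BMT 3 or control BM 3, and in DKO tumor it was 0 without tumor 3, control BM 3 or control BM 4. In set 2, leaving out control BM 1, the lowest control for 10 of the 11 rows, gave 2 in SKO yBM, 3 in DKO yBM, 4 in SKO BMT, 2 in DKO BMT and 3 in DKO tumor. The count was also 2 in SKO yBM without any 1 of its libraries, 2 in DKO BMT without DKO BMT 3, 3 in DKO tumor without DKO tumor 1, and in SKO tumor 0 without SKO tumor 1 and 3 without SKO tumor 2.

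**Figure D2:**
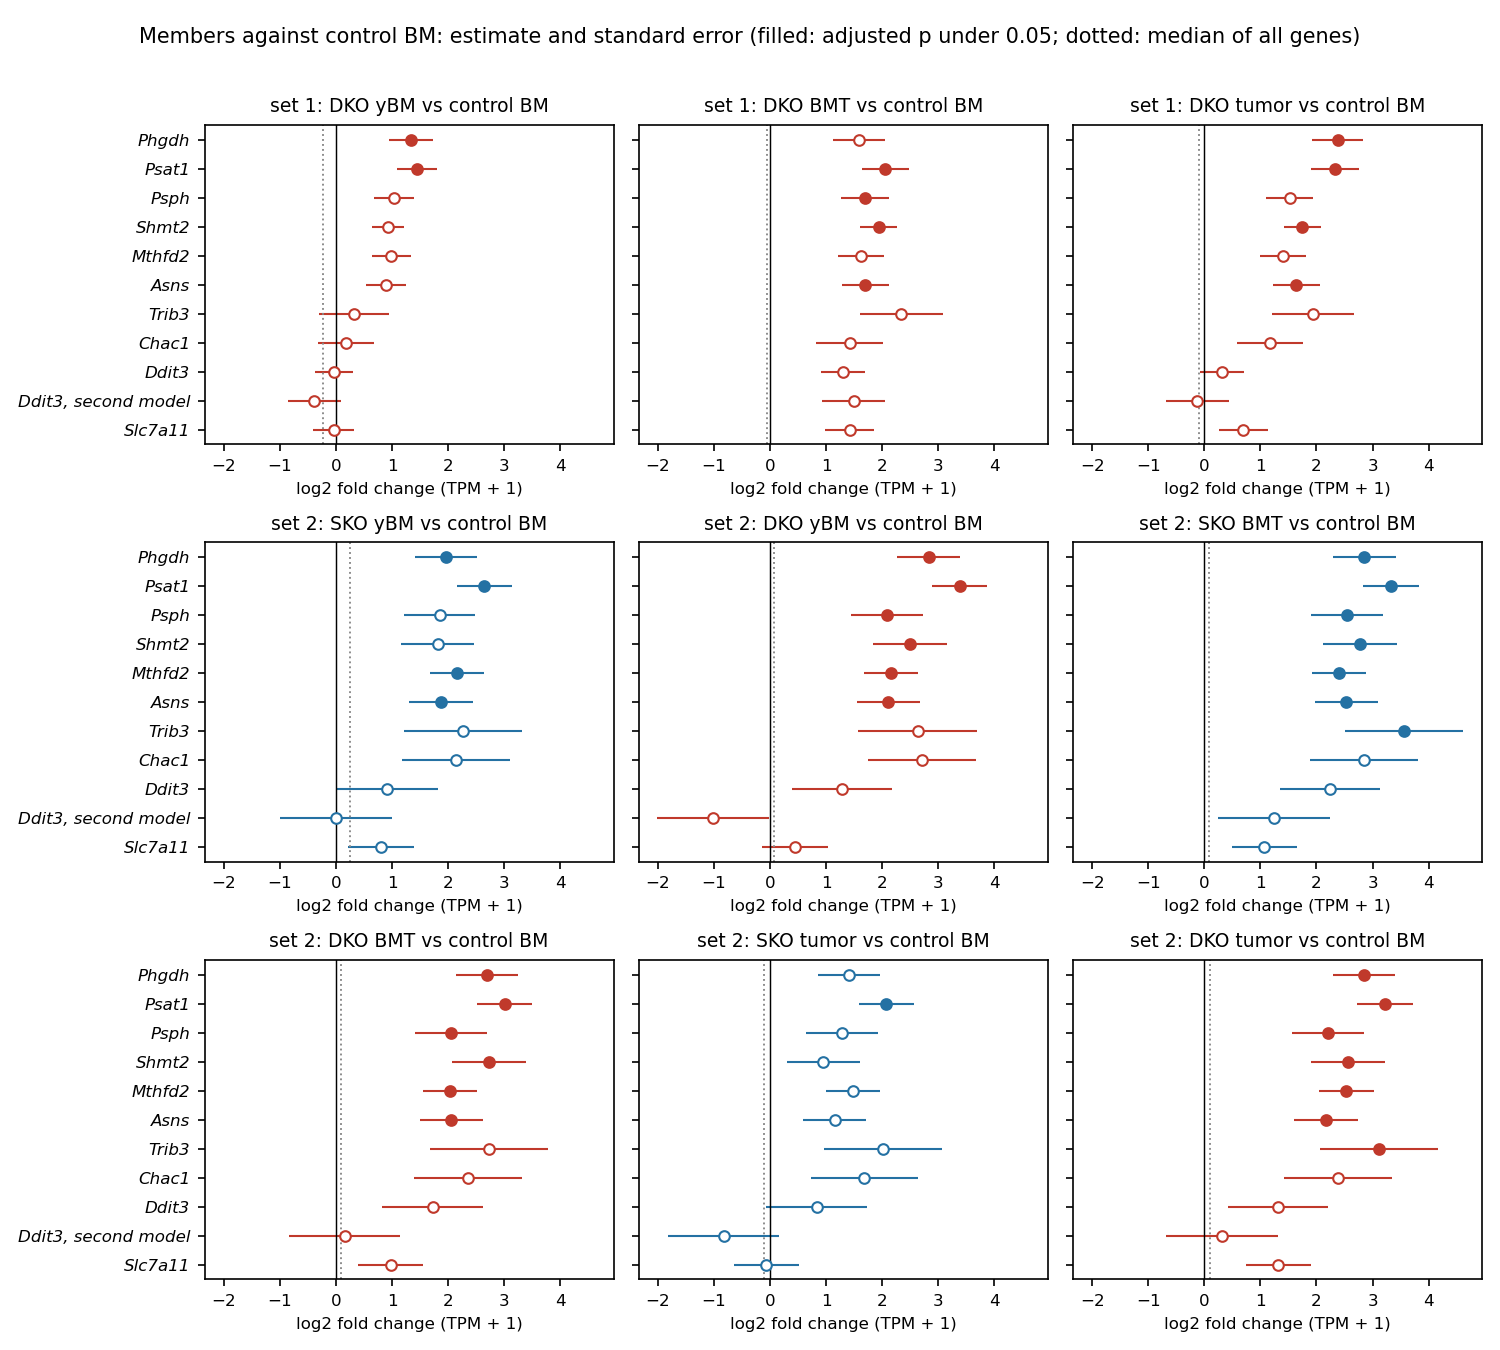
Difference in log2(TPM + 1) between each knockout group and control BM of its set for the 11 rows, with bars of 1 SE, filled points for an adjusted p under 0.05 and a dotted line at the median of all tested genes. The enzymes in the upper rows lie to the right of that line in all 9 panels, and the filled points are nearly all theirs.

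Stress regulators. Of Trib3, Chac1, Ddit3 and Slc7a11 only Trib3 was called, in SKO BMT (3.57 ± 1.05, adjusted p = 0.032; 1.23, adjusted p = 0.637, without SKO BMT 2 and 3) and DKO tumor (3.12 ± 1.05, adjusted p = 0.0495) of set 2. Trib3 was at 4.35 to 10.6 TPM with a median of 5.48 TPM in DKO yBM, 99.99, 8.55 and 21.3 TPM in DKO BMT and 18.6, 29.9 and 14.5 TPM in DKO tumor. Trib3 was at 1, 20.6, 4.18 and 3.11 TPM in control BM of set 1. All 6 yBM libraries were below control BM 2 and above the other 3 controls, and the highest knockout library was DKO BMT 1. Trib3 in set 2 was at 26.2, 19.4 and 36.9 TPM in DKO yBM, 31.6, 3.45 and 177 TPM in DKO BMT and 78.0, 28.8 and 23.5 TPM in DKO tumor. SKO cells had 28.7, 28.1 and 10.3 TPM in yBM, 9.44, 132 and 105 TPM in BMT and 28.6, 9.42 and 17.8 TPM in tumor. Trib3 was at 1.07, 6.82 and 4.48 TPM in control BM of set 2. Within the knockout libraries of set 2 the highest Trib3 level was 51.4 times the lowest, against 5.66 times for Psat1 and 4.92 times for Mthfd2. Both ends of that range were DKO BMT libraries, and 17 of the 18 were above the highest control.

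Chac1, the glutathione-degrading enzyme, was not called in any comparison. It was at 6.85 to 16.8 TPM with a median of 8.71 TPM in DKO yBM, 47.4, 14.1 and 21.3 TPM in DKO BMT and 18.7, 28.5 and 15.7 TPM in DKO tumor. Chac1 was at 3.59, 36.6, 7.24 and 4.70 TPM in control BM of set 1, and control BM 2 exceeded 11 of the 12 knockout libraries. Chac1 in set 2 was at 27.6, 20.1 and 55.2 TPM in DKO yBM, 18.8, 4.51 and 148 TPM in DKO BMT and 33.9, 28.9 and 15.5 TPM in DKO tumor. In SKO cells it was at 33.0, 22.1 and 12.2 TPM in yBM, 7.05, 78.6 and 69.9 TPM in BMT and 26.1, 10.3 and 12.0 TPM in tumor. Chac1 was at 1.38, 7.28 and 5.13 TPM in control BM of set 2. Its log2 differences in set 2 were 1.68 ± 0.96 in SKO tumor to 2.85 ± 0.96 in SKO BMT (0.70 without SKO BMT 2 and 3; lowest adjusted p = 0.0554 in DKO yBM).

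Ddit3 could be read less firmly, since the table splits it over 2 overlapping gene models and its locus also meets the end of Mars on the other strand. The second model held 66.5% to 83.0% of the summed level in set 1 libraries and 18.3% to 72.8% in set 2 libraries. The first model was at 44.5 to 77.4 TPM with a median of 56.2 TPM in DKO yBM, 208, 102 and 145 TPM in DKO BMT and 37.0, 125 and 84.0 TPM in DKO tumor. This model was at 32.2, 79.1, 79.2 and 57.9 TPM in control BM of set 1. The second model averaged 182 ± 90.4 TPM in DKO yBM, 637 ± 258 TPM in DKO BMT and 254 ± 200 TPM in DKO tumor (mean ± SD). In control BM of set 1 the second model averaged 225 ± 73.7 TPM. Of the set 1 groups only BMT lay wholly above the controls, for both models (1.30 ± 0.40, adjusted p = 0.0869, and 1.49 ± 0.56, adjusted p = 0.151), and neither was called. In set 2 the first model was at 69.1, 54.2 and 138 TPM in DKO yBM, 52.9, 27.2 and 891 TPM in DKO BMT and 129, 54.6 and 78.9 TPM in DKO tumor. It was at 83.8, 58.8 and 48.9 TPM in SKO yBM, 48.6, 236 and 336 TPM in SKO BMT and 50.5, 56.2 and 71.2 TPM in SKO tumor. Its level was 23.2, 42.2 and 35.0 TPM in control BM of set 2. There the second model averaged 79.4 ± 23.2 TPM (mean ± SD). In DKO cells of set 2 the second model averaged 51.1 ± 43.0 TPM in yBM, 214 ± 314 TPM in BMT and 102 ± 44.6 TPM in tumor. In SKO cells it averaged 111 ± 103 TPM in yBM, 237 ± 156 TPM in BMT and 43.1 ± 4.52 TPM in tumor. The 2 models pointed apart in DKO yBM and SKO tumor of set 2 and in DKO tumor of set 1, for example 1.28 ± 0.90 and -1.01 ± 0.99 in DKO yBM of set 2. In SKO yBM of set 2 the first model was at 0.92 and the second was level with control BM (-0.00042). Neither model was called in any comparison.

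Slc7a11, which imports cystine for glutathione, was the lowest of the genes in TPM. It was at 0.583 to 0.985 TPM with a median of 0.827 TPM in DKO yBM, 5.12, 9.12 and 0.919 TPM in DKO BMT and 0.725, 3.23 and 2.62 TPM in DKO tumor. Slc7a11 was at 0.739, 0.604, 1.29 and 0.78 TPM in control BM of set 1. The groups overlapped in set 1, with all 6 yBM libraries below the highest control and 2 libraries each of BMT and tumor above it. Slc7a11 in set 2 was at 2.01, 2.73 and 0.886 TPM in DKO yBM, 2.44, 0.983 and 8.37 TPM in DKO BMT and 5.31, 6.83 and 1.65 TPM in DKO tumor. SKO cells had 3.55, 2.26 and 2.00 TPM in yBM, 0.692, 4.90 and 6.83 TPM in BMT and 1.84, 0.374 and 0.885 TPM in tumor. Slc7a11 was at 1.33, 0.731 and 1.09 TPM in control BM of set 2. No comparison was called (lowest adjusted p = 0.0894 in DKO BMT of set 1), and the pseudocount of 1 shrinks fold changes at this level.

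**Figure D3:**
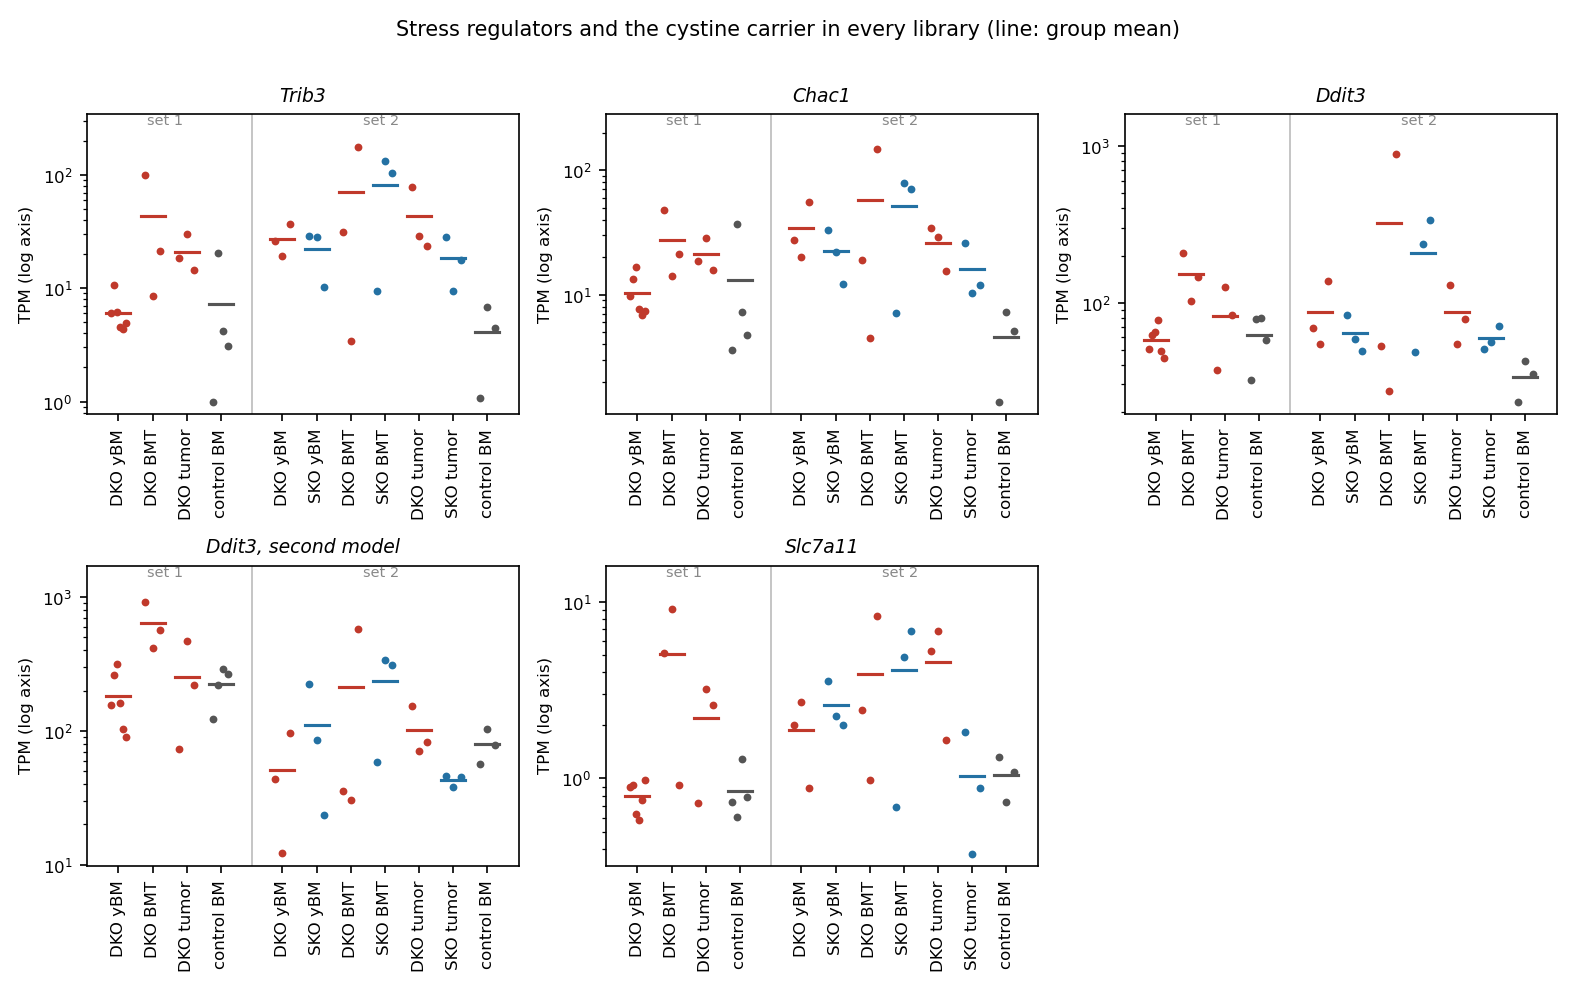
TPM (log axis) of Trib3, Chac1, the 2 Ddit3 gene models and Slc7a11 in each of the 37 libraries, with DKO in red, SKO in blue, control BM in grey and a line at each group mean. In set 2 Trib3 spans 3.45 to 177 TPM within DKO BMT alone, and in set 1 control BM 2 lies above 9 of the 12 knockout libraries for it.

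DKO against SKO. The comparison of genotypes at the same stage asks what loss of Wwox adds to loss of Trp53, and no row was called by limma in any of the 3. In tumor cells all 11 rows were higher in DKO, with a median log2 difference of 1.11 against 0.25 for all genes. Phgdh was at 538, 437 and 366 TPM in DKO tumor against 243, 70.4 and 249 TPM in SKO tumor, a log2 difference of 1.44 ± 0.56 (adjusted p = 0.585) with no overlap, as for the second Ddit3 model (4.8% of all genes). Unadjusted p was under 0.05 for 5 rows (Phgdh, Psat1, Shmt2, Mthfd2 and Slc7a11) and for 1213 of 14458 genes, none of which was called (0%). The 3 DKO tumor libraries hold Wwox above the control mean, and SKO tumor 2 was the lowest knockout library of set 2 for 6 of the 11 rows. In yBM, Phgdh was at 422, 390.1 and 502 TPM in DKO against 212, 212 and 301 TPM in SKO (0.87 ± 0.56), and Shmt2 did not overlap either (0.68 ± 0.66; 6.72% of all genes), while Mthfd2 had 0.00067 ± 0.48. The median over the rows was 0.36 against -0.096 for all genes, of which 0.0207% were called, with no row and 431 genes at an unadjusted p under 0.05. In BMT all 11 differences were negative (-1.09 to -0.049, median -0.47 against 0.0027 for all genes), no row and 378 genes had an unadjusted p under 0.05, and 0% were called. Against SKO BMT 1 alone, without the 2 libraries of low Wwox, all 11 were positive instead (0.087 to 1.66, median 0.58) and none was called (lowest adjusted p = 0.995). The interaction of genotype with stage was called for no row, whether in tumor against yBM, BMT against yBM or tumor against BMT, and for at most 2 of 14458 genes. The lowest unadjusted p among the rows was 0.049, for Slc7a11 in tumor against yBM (adjusted p = 0.869) and for Psat1 in tumor against BMT (adjusted p = 1), and without SKO BMT 2 and 3 no row was called in the 2 interactions that use BMT (lowest unadjusted p = 0.0911).

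Tumor against BM. No row was called between tumor and BM of the same genotype. In set 1 all 11 differences between DKO tumor and DKO yBM were positive, with no overlap for Asns, Psat1, Phgdh, Shmt2 and Trib3 (4.05% of all genes did not overlap in that direction). Phgdh was at 495, 367 and 502 TPM in DKO tumor, against 182 to 278 TPM with a median of 209 TPM in DKO yBM, a log2 difference of 1.04 ± 0.42 (adjusted p = 0.272). The median over the 11 rows was 0.74 against 0.16 for all genes, of which 0.132% were called, and 4 rows and 2245 genes had an unadjusted p under 0.05. In set 2 the median was 0.063 in DKO tumor against DKO yBM (all genes 0.017; 0.104% called) and no row and 731 genes had an unadjusted p under 0.05. In SKO tumor against SKO yBM all 11 differences were negative (median -0.58, all genes -0.34; 0% called), with no row and 958 genes at an unadjusted p under 0.05. Against SKO BMT the SKO tumor differences were negative for all 11 rows too, with a median of -1.38 against -0.26 for all genes, of which 0.083% were called, and 4 rows and 1649 genes had an unadjusted p under 0.05. There Shmt2 was at 125, 20.5 and 70.7 TPM in SKO tumor against 141, 288 and 211 TPM in SKO BMT, a log2 difference of -1.83 ± 0.66 (adjusted p = 0.426). Without SKO BMT 2 and 3 the median was -0.23, 5 of the 11 differences were positive and Shmt2 was at -1.30. DKO tumor against DKO BMT gave a median of 0.15 in set 2 (no row and 565 genes at an unadjusted p under 0.05; 0.083% called) and -0.21 in set 1 (2 rows and 1861 genes; 0.257% called), where the 2 Ddit3 models were the rows with an unadjusted p under 0.05 (-0.99 ± 0.42 and -1.61 ± 0.60). The BMT and tumor cells of set 1 are described in the study as paired, and a fit of these 6 libraries with the number as the pair called no row (lowest adjusted p = 0.594). Between the ages of the DKO yBM cultures all 11 rows were lower at 4 months than at 1.5 months, with a median of -0.33 against -0.11 for all genes, and no row and 155 genes had an unadjusted p under 0.05 (0.00694% of genes called). Psat1 was at 63.5, 81.6 and 87.6 TPM at 4 months, against 111, 121 and 108 TPM at 1.5 months (-0.56 ± 0.45).

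The genes varied together from library to library. With log2(TPM + 1) centred within each set, the 55 pairs of rows had a median Pearson's r of 0.81 over the 37 libraries, 49 pairs were above 0.5 and none was below 0. The closest pairs were Asns with Psph (0.961), Trib3 with Chac1 (0.956) and Psat1 with Phgdh (0.950), and the second Ddit3 model and Slc7a11 stood furthest from the others. These are descriptions over libraries that share groups and controls. The mean standardized level of the 10 genes (for Ddit3 the first model) was highest in DKO BMT 3 (1.97) of set 2, DKO BMT 1 of set 1 (1.59) and SKO BMT 2 and 3 of set 2 (1.36 and 1.28), the 2 libraries labelled SKO with low Wwox. Wwox was at 6.74% of the control mean in DKO BMT 3 of set 2 but at 164% in DKO BMT 1 of set 1. DKO BMT 2 of set 2 had Wwox at 8.36% and a mean standardized level of -0.97. In DKO BMT 3 of set 2, Asns was at 403 TPM, Trib3 at 177 TPM, Chac1 at 148 TPM and the first Ddit3 model at 891 TPM. DKO BMT 2 of the same group had 77.9, 3.45, 4.51 and 27.2 TPM of these. The BMT groups thus held both high and low libraries, and within set 2 the 3 controls had the lowest levels (-2.33, -1.25 and -1.41).

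**Figure D4:**
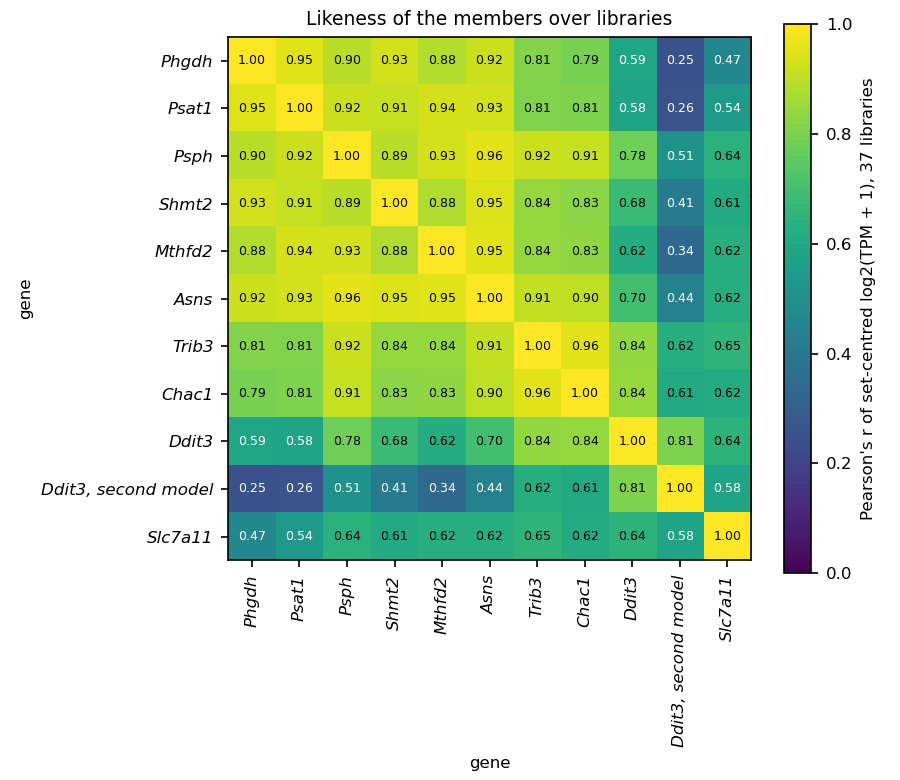
Pearson's r between the 11 rows over the 37 libraries, from log2(TPM + 1) centred within each set, with colour from 0 to 1. The 6 enzymes, Trib3 and Chac1 form a block of high values, and the second Ddit3 model and Slc7a11 lie outside it.

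Of 9864 genes with a mean of at least 5 TPM, the 5 others most like the mean level of the members were Gars (r = 0.950 over 37 libraries), Eif4ebp1 (0.947), Slc6a9 (0.935), Aldh1l2 (0.933) and Gpt2 (0.923). Gars charges glycine to its tRNA, Eif4ebp1 encodes the cap-dependent translation repressor 4E-BP1, Slc6a9 imports glycine, Aldh1l2 is a mitochondrial folate enzyme and Gpt2 makes alanine in mitochondria. Aldh1l2 averaged 24.2 ± 4.90 TPM in DKO yBM against 2.75 ± 0.989 TPM in control BM of set 2 (SD, n = 3 each), a log2 difference of 2.77 ± 0.82 (limma adjusted p = 0.024), and was called higher in 8 of 9 comparisons with control BM.

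Related genes were counted by list, where 0.958% to 9.34% of all genes were called higher and 1.4% to 10.2% lower in the 9 comparisons with control BM. Of 20 cytosolic aminoacyl-tRNA synthetases, which charge tRNAs and include many Atf4 targets, 1 to 9 were called higher and none lower in each comparison with control BM, with list medians of 0.23 to 1.36. The most were in DKO tumor of set 2 (9, list median 1.13, all genes 0.11), and Yars was called in 7 comparisons, Kars in 6 and Gars in 5. Gars averaged 302 ± 89.4 TPM in DKO tumor against 90.03 ± 29.0 TPM in control BM of set 2. Of the other folate and one-carbon enzymes (16 tested in set 1 and 17 in set 2), 2 to 7 were higher and at most 1 lower, led by Aldh1l2, the thymidylate synthase Tyms and the cytosolic Shmt1, the last 2 called in 7 comparisons each. Amino acid transporters (13) were split, with 0 to 4 higher and 0 to 1 lower. Slc7a5, the leucine carrier, and Slc7a1, the arginine and lysine carrier, were each called higher in 6 comparisons, and Slc43a2, a neutral amino acid carrier, was called lower in 7. Slc7a5 averaged 146 ± 61.6 TPM in DKO tumor against 12.8 ± 4.91 TPM in control BM, and Slc43a2 2.22 ± 1.49 TPM against 73.1 ± 21.6 TPM (SD, n = 3 each).

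Of 18 kinases and regulators of the integrated stress response, at most 1 was higher and at most 2 lower in any comparison with control BM. These counts were near the share of all genes called, and list medians were -0.80 to -0.027. Atf4 itself was the gene called higher, in 5 of the 6 knockout groups of set 2, at 270.5, 209 and 262 TPM in DKO yBM against 46.5, 105 and 119 TPM in control BM (1.54 ± 0.43, adjusted p = 0.0184). In set 1 Atf4 was at 268, 194 and 161 TPM in DKO BMT against 102, 175, 115 and 98.5 TPM in control BM and was not called (0.76 ± 0.29, adjusted p = 0.152). Atf3, a transcription factor of the stress arm, was called lower in 4 comparisons of set 2, at 6.07 ± 2.16 TPM in DKO yBM against 52.8 ± 8.24 TPM in control BM (SD, n = 3 each), and Sesn2, which senses leucine, was called lower in 1. Of 15 proline, aspartate and glutamate enzymes 0 to 5 were higher and 0 to 2 lower, with glutamine synthetase (Glul) lower in 7 comparisons, Ass1, an arginine synthesis enzyme, lower in 4 and Aldh18a1, a proline synthesis enzyme, higher in 4. Of 16 cysteine and glutathione enzymes 0 to 2 were higher and 0 to 2 lower, again near that share. Among them Gclm, a subunit of the enzyme that starts glutathione synthesis, was called lower in the 6 groups of set 2. Hmox1, which breaks down haem, was called lower in 3 comparisons, whereas Cth, which makes cysteine, was called higher in 1.

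Leukocyte and cycling markers moved with the same comparisons, and the mitochondrial share of TPM, a sign of RNA quality, varied with the level of the genes. In set 2 between 20 and 22 of the 22 leukocyte markers were called lower in each knockout group, with list medians of -8.10 to -6.16. In the same groups 2 to 8 of 13 cycling markers were called higher, with levels of 3.53 to 6.59 in knockout libraries against 3.33 to 4.07 in controls. In set 1 none of the leukocyte markers was called in DKO yBM or DKO BMT and 12 were lower in DKO tumor (list median -4.60), while 1 to 2 cycling markers were higher in each group, with list medians of 0.88 in DKO yBM, 1.24 in DKO BMT and 1.33 in DKO tumor. With leukocyte level as a covariate no row was called in any knockout group of set 2 or in DKO tumor of set 1. In set 2 leukocyte level nearly separates the controls from the knockout libraries, so this fit cannot divide leukocyte content from genotype there. The estimates of the 6 enzymes in set 2 were then 0.97 to 2.41 in DKO yBM, 1.12 to 2.25 in DKO BMT, 1.02 to 2.79 in DKO tumor, 0.13 to 2.41 in SKO yBM, 1.41 to 2.60 in SKO BMT and -0.41 to 1.73 in SKO tumor. Phgdh gave the lowest in SKO yBM (0.13, adjusted p = 0.975, against 1.96 without the covariate) and in SKO tumor (-0.41, against 1.41), whereas Psat1 was at 1.01 in SKO tumor to 2.49 in SKO BMT. DKO BMT of set 1 had 4 called rows without the covariate and 5 with it, and DKO yBM of set 1 had 2 either way. Among the 18 knockout libraries of set 2 the member level had r = 0.0076 with leukocyte level and -0.14 with cycling level, and among the 12 of set 1 these were -0.27 and 0.33. In set 2 only SKO BMT 2 (5.06) and DKO BMT 2 (4.25) had a high leukocyte level. Their member levels were 1.36 and -0.97, so that the r with leukocyte level rests on them. With the mitochondrial share the r of the member level was -0.34 in the knockout libraries of set 2 and -0.52 in those of set 1, and with controls included -0.47 (n = 21) and -0.51 (n = 16). SKO tumor 2, the lowest knockout library of set 2 for 6 rows, had 26.8% and the fewest genes at 1 TPM or more (11001), and control BM 1 of set 2, the lowest control for 10 rows, had 32.5%, the highest share of the 37 libraries. The part of leukocyte content, cycling and RNA quality in the differences from control BM was not tested beyond these values.

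**Figure D5:**
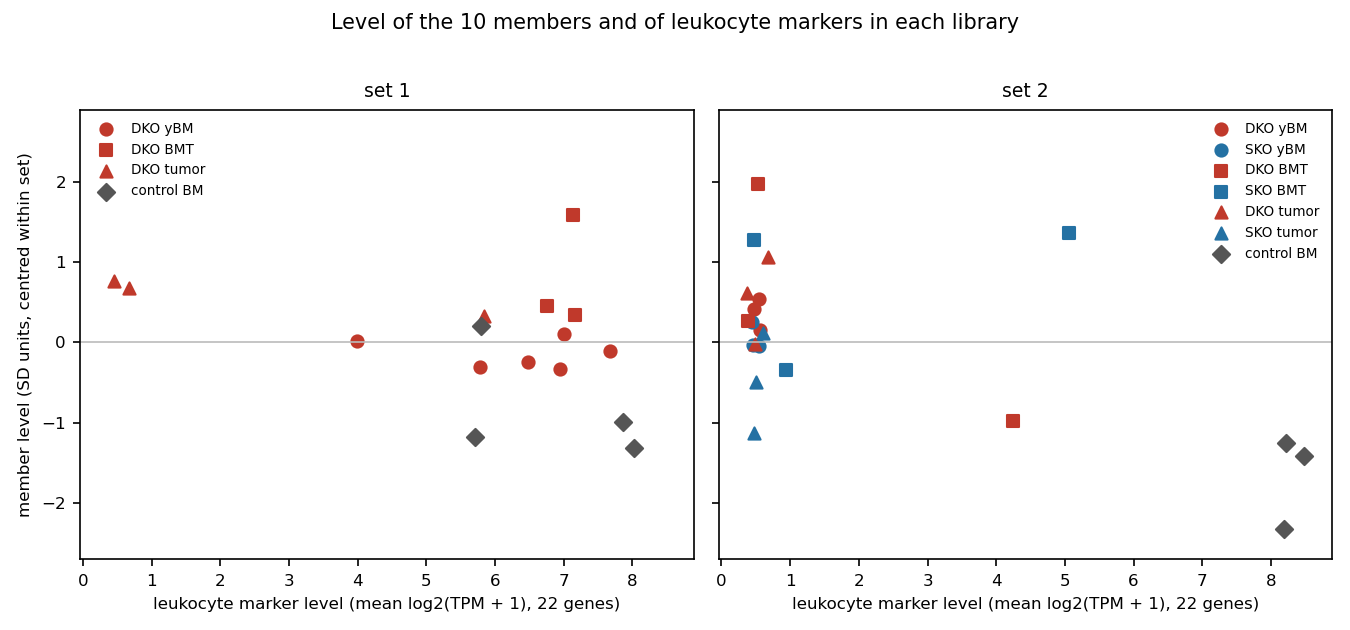
Mean standardized level of the 10 genes (centred within each set) against the mean log2(TPM + 1) of 22 leukocyte markers, 1 point per library, for set 1 and set 2. In set 2 the 3 controls lie alone at high leukocyte level and low member level, whereas in set 1 the 3 DKO BMT libraries lie above all 4 controls in member level and inside their range of leukocyte level.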

How the data were processed

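The authors extracted RNA from cultured cells with TRI reagent and sequenced stranded poly-A libraries. Per the submitters' processing notes they used Salmon with the build mm39, after trimming (Trim Galore 0.6.1) and FastQC, and DESeq2, which was not run here. The deposited values are TPM (each gene's share of all transcripts after correction for length) per Ensembl gene ID, without counts, so depth is unknown and a count test could not be run. Of 51123 gene IDs, 48246 matched a symbol. The columns of the 3 control libraries of set 2 could be mapped to their group only and are numbered here as in the table.

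Values were taken as log2(TPM + 1) and tested with limma 3.58.1 (R 4.3.3; prior with trend), keeping genes that reached 1 TPM in 3 or more libraries of a set (14404 genes in set 1, 14458 in set 2). The p-values were adjusted by Benjamini-Hochberg. The groups of a set were fitted together and the sets apart, and the fits were tested on simulated data. The pseudocount of 1 understates changes of low genes. A mean, SD or SE is over libraries, and since the sources do not state whether each library of set 2 is its own animal, its p-values only measure a spread that may be technical. The 3 set 1 and the 6 set 2 comparisons with control BM share their controls. The 10 genes and all lists were chosen with earlier results of these data known. Named beside them are the deleted genes, up to 3 genes of each related list called in the most of the 9 comparisons with control BM (ties by smallest p), and the 5 genes most like the mean level of the 10. Replicate numbers paired samples, by correlation of deviations, for SKO BMT with DKO BMT only (r of 0.29 to 0.38). Alternatives were another pseudocount, no filter, other scalings, fits of 2 groups, a replicate block, a leukocyte covariate and leaving out libraries, and after seeing the data also summing the Ddit3 models, leaving out the 2 leukocyte-rich knockout libraries or the 2 SKO libraries of low Wwox in set 2, and pairing tumor with BMT in set 1, which the study describes as paired.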

Additional observations from a re-analysis of the deposited data

Results flagged for a closer look

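Among 26 sets of values of a gene in a group of 4 to 6 libraries, with Trp53 and Wwox included, 6 had a library far from the others. For a single set of normally distributed values chance gives about 1 in 20, but the genes vary together, so the sets are not independent. The gaps were taken on TPM, not on the log2(TPM + 1) scale of the fits, and a log scale narrows the gap to a high library. Whether these libraries would be flagged on the log scale was not tested. In control BM of set 1 control BM 2 was the highest library, and its gap to the next was a share of the group's range of 0.8658 for Psat1, 0.8979 for Phgdh, 0.9858 for Psph, 0.8372 for Trib3 and 0.8896 for Chac1. In DKO yBM of set 1 library 2 was the highest for Trib3, with a share of 0.7151.

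For 3 of 110 pairs of a gene and a contrast compared between the sets, the libraries of each pair of groups moved in opposite directions, and these differences were not tested. Psph in tumor against yBM was 0.48 in DKO of set 1 and -0.57 in SKO of set 2 on the log2 scale, a gap of 1.05. Psat1 in tumor against BMT was 0.27 in DKO of set 1 and -1.26 in SKO of set 2, a gap of 1.531. For Phgdh in tumor against BMT these were 0.79 and -1.44, a gap of 2.235. Without SKO BMT 2 and 3, whose Wwox was near 0, the set 2 values for tumor against BMT were -0.75 for Psat1 and -1.20 for Phgdh. Each of these gaps sets DKO of set 1 against SKO of set 2, so set and genotype differ together in it. The same contrasts compared between DKO of set 1 and DKO of set 2 were not flagged. The part of set or genotype in the gaps was not tested.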

How the results depend on the processing

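No call of a row reversed its direction under any alternative, and the 10 comparisons between knockout groups stayed at 0 called rows throughout. The number of called rows in DKO yBM of set 1 (2) was 1 with a pseudocount of 0.1, 0 without the filter and 0 with the replicate block. Without the libraries whose Trp53 or Wwox was at 50% or more of the control mean only yBM 1 of that group was left, and that count is not given. With median-ratio scaling the number was 6, with quantile normalization 4 and leaving out 1 library 0 to 6. In DKO BMT of set 1 (4) it was 1 without the filter, 0 with the 2 groups alone, 0 with the replicate block and 1 to 8 leaving out 1 library. In DKO tumor of set 1 (4) it was 0 with the 2 groups alone, 0 with the block, 0 without the libraries of high Trp53 or Wwox, 0 with the leukocyte covariate and 0 to 8 leaving out 1 library. In set 2 the leukocyte covariate, which cannot be told apart from genotype there, gave 0 in all 6 knockout groups against control BM. With the 2 groups alone the count was 8 in SKO yBM (4), 3 in SKO BMT (7), 1 in DKO BMT (6) and 0 in SKO tumor (1), and in SKO tumor it was 3 with either other scaling. Without the libraries labelled SKO with low Wwox it was 1 in SKO BMT. Leaving out 1 library gave 2 to 3 in SKO yBM, 3 to 6 in DKO yBM, 4 to 9 in SKO BMT, 2 to 9 in DKO BMT, 0 to 3 in SKO tumor and 3 to 6 in DKO tumor. The cause of these shifts was not tested.

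Scaling moved the median of all genes by over 0.1 in several comparisons, to -0.02 with median-ratio scaling, against -0.22, in DKO yBM of set 1 and to 0.0066, against 0.24, in SKO yBM. The share of higher genes among those called was 21.4%, 40.7% and 35.0% in DKO yBM, DKO BMT and DKO tumor of set 1, against 59.1%, 57.3% and 57.6% with median-ratio scaling, and no call of the 10 genes turned lower. DKO tumor and DKO BMT of set 1 are described as paired, but same-numbered libraries had r of -0.091 to 0.28, and the pair block left 0 called. Of the other replicate numbers only those of SKO BMT and DKO BMT in set 2 paired samples by correlation. In DKO yBM, DKO BMT and DKO tumor of set 1 the replicate block took the called rows against control BM from 2, 4 and 4 to 0. Between knockout groups it left 0 called wherever it was fitted. No paired analysis was possible for set 2 against control BM because the numbers of the control columns could not be tied to labelled libraries, or between the ages because they share none. DKO tumor of set 2 and DKO BMT of set 1 could not be fitted without the libraries of high Trp53 or Wwox, since all 3 libraries of each are among them. Depth is unknown, so no counting error could be given.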
